A study of Mus musculus with 6 samples.

Results

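Transcripts of 10 basement membrane genes were followed in cultured mouse hepatic stellate cells given forskolin or its solvent: Col4a1 and Col4a2, the laminin chain genes Lama4, Lama5, Lamb1, Lamb2 and Lamc1, the nidogen genes Nid1 and Nid2, and the perlecan gene Hspg2. They were taken by gene symbol from a named list and are 10 of 24940 rows in the deposited table. Of these, 9 were among the 12233 genes with enough counts to be tested, while Lama4 was not. The cells were primary stellate cells of female wild-type C57BL/6JBomTac mice, kept in culture for 2 days. Cells of 3 libraries then received 5 µM forskolin and cells of 3 libraries the same volume of DMSO for 3 h, and polyadenylated RNA was sequenced from the bulk lysate. Replicates are lettered A, B and C in each group. The labels do not say whether the letters stand for separate animals or isolations; the tests below therefore weigh differences against the spread of these 6 samples alone, and that spread may be technical. In bulk RNA, fewer cells of a type and less RNA per cell cannot be told apart.

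The basement membrane is a thin sheet of matrix on which epithelium and endothelium rest and which wraps muscle and fat cells. Laminins, trimers of an alpha, a beta and a gamma chain, polymerise at the cell surface, a collagen IV network forms alongside, and nidogens and the heparan sulfate proteoglycan perlecan connect the networks. In the liver sinusoid a continuous basement membrane is missing in health, and stellate cells, pericytes that line the sinusoid and store retinoids, are among the cells that make its components. Forskolin activates adenylyl cyclase directly and so raises cAMP.

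Column totals ran from 2770628.5 to 10607997 counts, and the C library was the shallowest of each group. As a check of the labels, Nr4a1, an immediate target of cAMP signalling, ranged over 41.0 to 42.6 CPM (counts scaled to library size) under DMSO and over 413 to 517 CPM under forskolin, and Crem, Pde4d and Sik1 rose as well. Across all genes, 2.8% of those tested were called, at a Benjamini-Hochberg adjusted p under 0.05 in edgeR's quasi-likelihood test. Of 15 stellate cell markers, 14 had at least 3 counts in every library, and the summed level of all 15 was 2290 to 2341 CPM in DMSO and 2166 to 2434 CPM with forskolin. The exception was Gfap, with mean levels under 1 CPM in both groups. The sum hides shifts of single stellate markers. Of 14 tested, 2 were called higher and 0 lower, beside 2.22% and 0.572% of all tested genes. Values did not overlap between the groups for 7 of the 14, beside 20.2% of all tested genes. Their log2 fold changes ran from −0.57 to 1.71, with a median of 0.04. Summed markers of hepatocytes (4.80 to 22.4 CPM over all libraries), cholangiocytes (8.66 to 43.9 CPM), macrophages (14.2 to 21.8 CPM), lymphocytes (1.18 to 6.11 CPM) and mesothelial cells or portal fibroblasts (1.08 to 5.56 CPM) were low, while those of vascular smooth muscle, some of which stellate cells also express, summed to 168 to 276 CPM. The 14 sinusoidal endothelial markers summed to 15.5 to 26.1 CPM in DMSO and 57.9 to 92.4 CPM with forskolin. That gap lay in Egfl7, at 0 to 7.24 CPM against 44.6 to 79.7 CPM, and the other 13 markers summed to 11.3 to 18.8 CPM in DMSO and 12.7 to 17.9 CPM with forskolin, with Fcgr2b at 0 in every library.

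Per kilobase of transcript, the members spanned a wide range of levels. In DMSO the order, in RPKM (CPM per kilobase, mean of 3 libraries), was Nid1 at 351, Col4a1 at 265, Col4a2 at 155, Lamb1 at 94.9, Lamc1 at 80.4, Nid2 at 19.0, Hspg2 at 6.34, Lamb2 at 6.19, Lama5 at 1.31 and Lama4 at 0.181. Neighbours in this order did not overlap over the 3 DMSO libraries, except Lamb1 with Lamc1 and Hspg2 with Lamb2. With forskolin the order was the same, and the overlapping neighbours were Hspg2 with Lamb2 and Lamb2 with Lama5. The 10 genes together took 0.604% to 0.671% of all counts in the DMSO libraries and 0.585% to 0.635% in the forskolin libraries.

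**Figure D1:**
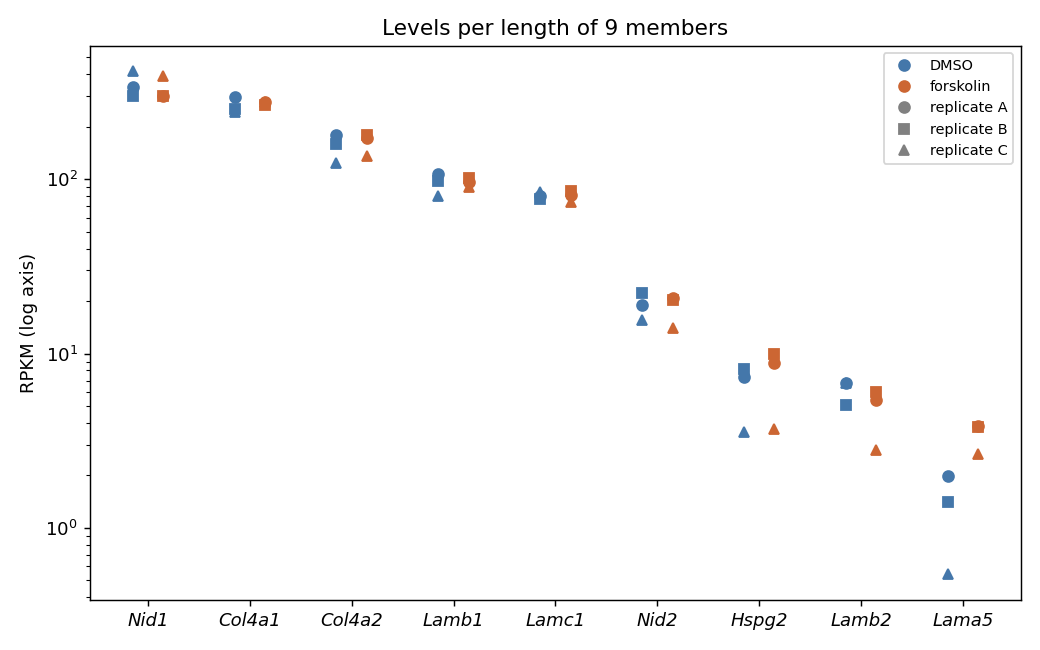
Level per transcript length (RPKM, log axis) of 9 members in each library, blue for DMSO and orange for forskolin, with symbols for replicates A, B and C. Nid1, Col4a1 and Col4a2 lie above 100 RPKM in every library and Lama5 below 4 RPKM; Lama4 is left out because 2 of its values are 0.

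By the test across all genes, 0 of the 9 tested members were called higher and 0 lower after forskolin. The background was 2.22% of tested genes called higher and 0.572% called lower, beside which 0 of 9 does not stand out. At an unadjusted p under 0.05 there was 1 member of 9, Lama5, against 12.1% of all tested genes. Each of DESeq2, limma-voom and edgeR's likelihood ratio test called 1 member, again Lama5, where these tools called 4.52%, 3.94% and 5.31% of all tested genes. Values did not overlap between the groups for 1 of the 9, against 20.2% of all tested genes. The median log2 fold change of the members was 0.02, beside 0.00 over all tested genes. Estimates were above 0 for 6 of the 9 members, beside 6211 of all 12233 tested genes.

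**Figure D2:**
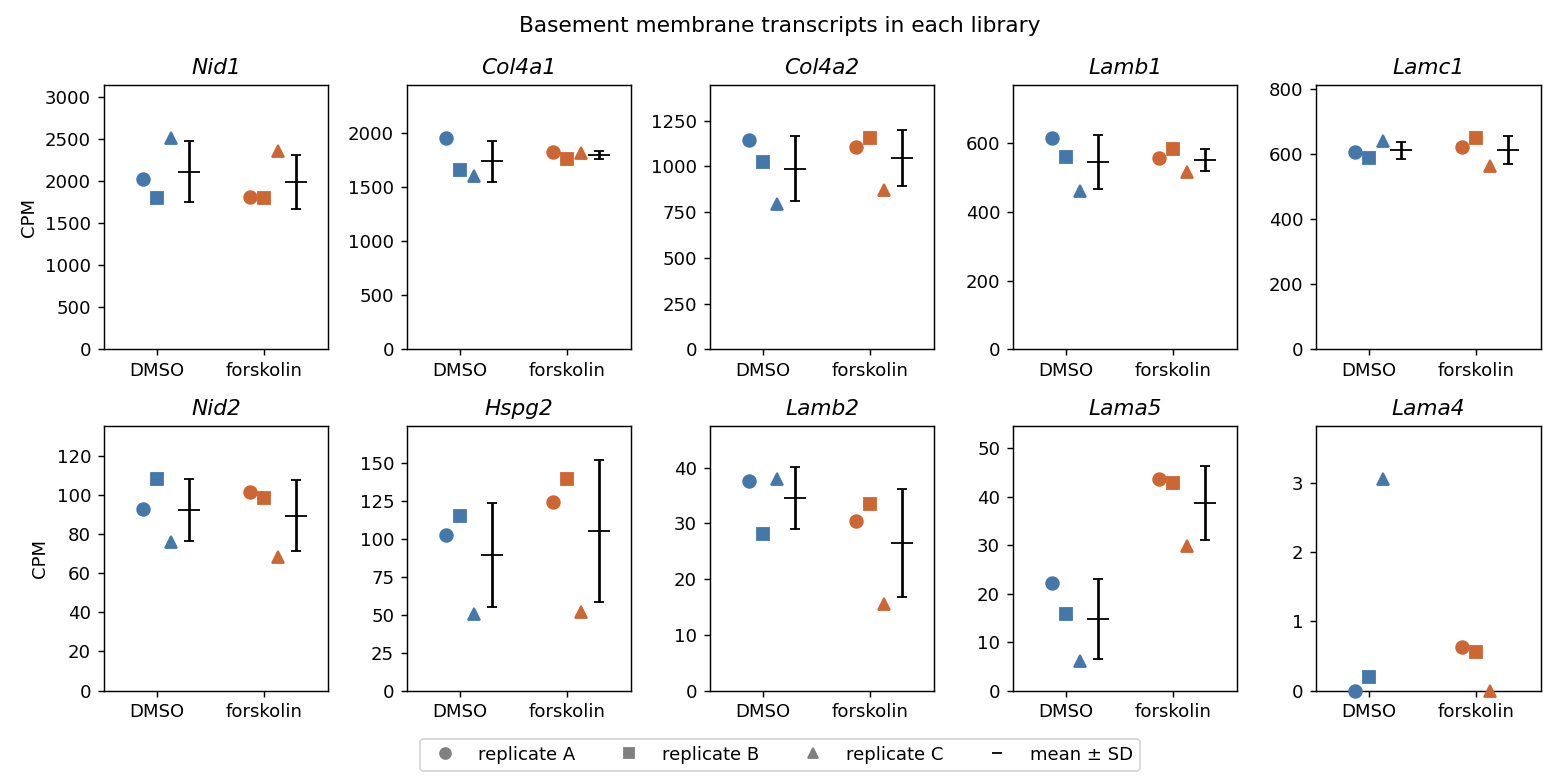
Level of each of the 10 members in CPM (vertical axes from 0) in the DMSO and forskolin libraries, with the mean and SD of 3 libraries beside the points (not drawn for Lama4, which has values of 0). Lama5 is the 1 panel in which all forskolin points, 29.9 to 43.7 CPM, lie above all DMSO points, 6.10 to 22.3 CPM.

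The nidogens, monomeric glycoproteins that bind laminin gamma chains and collagen IV, came from a very abundant and a moderately expressed gene. Nid1 (chr13:13437602-13512275, plus strand, mm10) was at 2030, 1800 and 2516 CPM in DMSO A, B and C and at 1816, 1800 and 2364 CPM in forskolin A, B and C. The C library was the highest of each group, and the groups overlapped. The log2 fold change was −0.09 ± 0.20 (SE, adjusted p = 0.943, edgeR), with a 95% interval of −0.52 to 0.35. Nid2 (chr14:19751257-19811787, plus strand) was at 92.8, 108 and 75.9 CPM in DMSO and at 101, 98.3 and 68.4 CPM with forskolin. Here both C libraries were low, and the groups overlapped again. Its log2 fold change was −0.04 ± 0.18 (adjusted p = 0.976, 95% interval −0.44 to 0.36). The 3′ end of Nid2 overlaps that of Rtraf on the other strand over 386 bases, and the kit does not mark strand, so reads there cannot be assigned to either gene.

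Collagen IV, the network-forming collagen of basement membranes, is a trimer mostly of the chains that Col4a1 and Col4a2 encode. The 2 genes lie head to head on chromosome 8 and share a promoter region, Col4a1 at chr8:11198423-11312826 on the minus strand and Col4a2 at chr8:11312805-11449287 on the plus strand, with 22 bases in common. Col4a1 was at 1957, 1661 and 1606 CPM in DMSO A, B and C and at 1825, 1758 and 1821 CPM in forskolin A, B and C. The forskolin values lay inside the DMSO range, and the log2 fold change of 0.05 ± 0.16 had a 95% interval of −0.30 to 0.40. Col4a2 was at 1144, 1026 and 797 CPM in DMSO and at 1108, 1157 and 874 CPM with forskolin, with the C library lowest in each group. Its log2 fold change was 0.08 ± 0.18 (95% interval −0.32 to 0.48), and neither gene was called (adjusted p = 0.965 and 0.938, edgeR). Per length, the ratio of Col4a2 to Col4a1 was 0.601, 0.635 and 0.511 in DMSO and 0.624, 0.676 and 0.494 with forskolin. A trimer of this kind holds more of the chain from Col4a1. The transcript ratio was below 1 in all 6 libraries, but it rests on the deposited lengths and does not measure chains in the protein. The ratio differed by 0.03 on the log2 scale between the groups (two-sided exact permutation test, p = 0.8, adjusted p = 1 over 3 ratios), where 3 libraries against 3 cannot give a p below 0.1, and its sign turned when single libraries were left out. The other collagen IV genes were nearly silent: Col4a6 had no count in any library, and Col4a3, Col4a4 and Col4a5 had means of 0.779, 0.806 and 4.10 CPM in DMSO.

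The laminin gamma and beta chains were represented by Lamc1 and Lamb1. Lamc1, which encodes the gamma chain shared by most laminins (chr1:153218922-153332786, minus strand), was at 605, 588 and 638 CPM in DMSO and at 620, 649 and 564 CPM with forskolin. The ranges overlapped almost fully, and the log2 fold change of 0.00 ± 0.12 had a 95% interval of −0.27 to 0.28, the narrowest of the members. Lamb1 (chr12:31265294-31329639, plus strand) was at 615, 560 and 460 CPM in DMSO and at 555, 581 and 516 CPM with forskolin (log2 fold change 0.02 ± 0.14, 95% interval −0.30 to 0.33), ranges that overlapped too. Both estimates were so near 0 that their sign turned with the scaling, to −0.03 for Lamc1 and −0.01 for Lamb1 with upper quartile factors. Lamb2, the beta chain of synaptic, glomerular and vascular laminins (chr9:108479862-108490530, plus strand), was the lower of the beta genes. It was at 37.6, 28.2 and 38.0 CPM in DMSO and at 30.4, 33.6 and 15.5 CPM with forskolin. Forskolin C was the outlying value, at 39.5 counts, and the log2 fold change of −0.33 ± 0.28 (adjusted p = 0.757) moved to −0.10 without that library. Per length, Lamb2 stood at 0.0628, 0.0516 and 0.0847 of Lamb1 in DMSO and at 0.0563, 0.0593 and 0.0306 with forskolin (exact permutation p = 0.4, adjusted p = 1). For Nid2 over Nid1 the ratios were 0.0567, 0.0743 and 0.0375 in DMSO and 0.0690, 0.0677 and 0.0359 with forskolin (exact permutation p = 1), with the C libraries lowest in both groups.

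Lama5 encodes the alpha chain found in most adult epithelial and vascular basement membranes; laminin alpha chains carry the main integrin- and dystroglycan-binding domains of the trimer. It was the member with the largest difference. Lama5 (chr2:180176373-180225859, minus strand) was at 22.3, 15.9 and 6.10 CPM in DMSO A, B and C and at 43.7, 42.8 and 29.9 CPM in forskolin A, B and C. All forskolin libraries lay above all DMSO libraries, and the C library was the lowest of each group. These values rest on 153, 157 and 18.5 counts in DMSO and 419, 460 and 77 counts with forskolin. The log2 fold change was 1.35 ± 0.36, or 2.55-fold, with an unadjusted p = 0.00383 and an adjusted p = 0.10 over all tested genes in edgeR, so the gene was not called. Over 18 alternative settings the estimate ran from 1.05 to 1.74 and the adjusted p from 1.44e-05 to 0.355. In 7 of them the gene was called, namely with DESeq2 (adjusted p = 0.0144), limma-voom (0.0154), limma-voom with sample quality weights (0.00146), the likelihood ratio test (0.00822), no filter (1.44e-05), both C libraries left out (2.42e-04), and the fit by replicate letter described in the closing section. With no filter, adjusted p in edgeR's quasi-likelihood test was far lower for other genes too, at 1.31e-143 for Sik1 beside 7.46e-07 in the main fit. The low value there was thus not particular to Lama5. Lama5 was not called in any fit that left out 1 library, where adjusted p lay between 0.0539 and 0.355. Nor was it called under the other 3 scalings, a filter of 1 CPM or offsets that follow abundance. Endothelial cells also make this chain, and the part of other cell types in the Lama5 values was not tested. Of the 14 endothelial markers, 4 had enough counts for the test. Egfl7 was called higher, beside 2.22% of all tested genes. Estimates were above 0 for 3 of the 4, beside 6211 of all 12233 tested genes. Log2 fold changes of the 4 markers ran from −0.07 to 3.90, with a median of 0.59. Summed endothelial markers overlapped between the groups only when Egfl7 was left out, as given above.

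**Figure D3:**
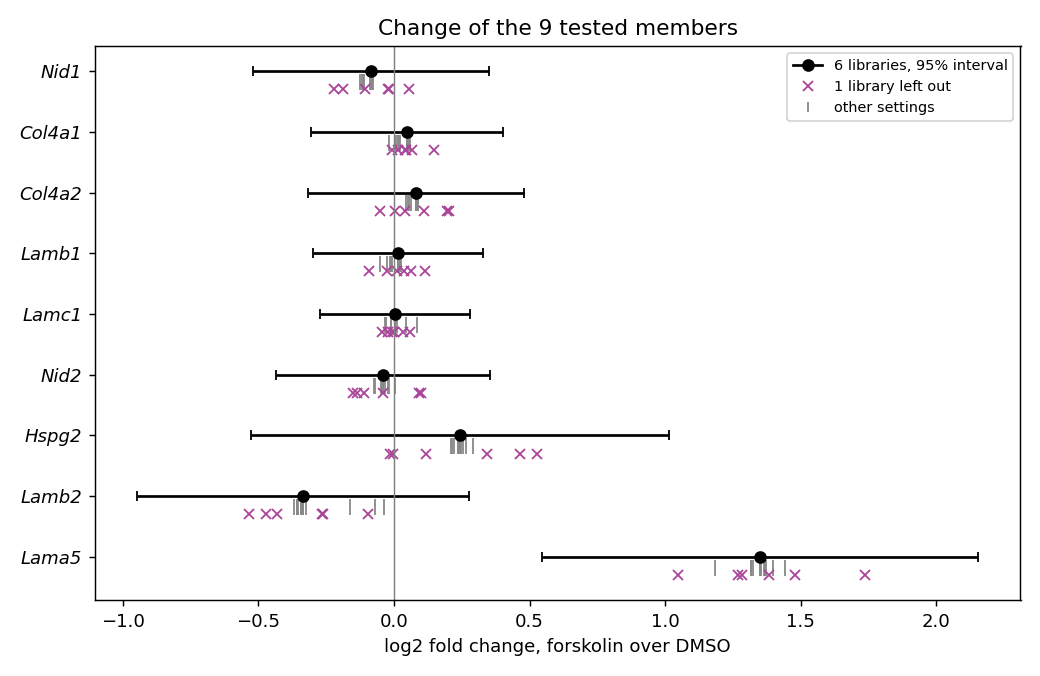
Log2 fold change of forskolin over DMSO for the 9 tested members, in the order of their level per length. Black points with bars are the estimate and 95% interval from 6 libraries, crosses the fits with 1 library left out and grey ticks the other settings; the interval lies above 0 for Lama5 (0.55 to 2.16, before adjustment) and spans 0 for the other 8.

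Because Lama5 was the member whose groups did not overlap, part of the sequence upstream of its annotated start at chr2:180225859 is shown. The stretch ends short of that start (chr2:180225900-180226109, minus strand, from RefSeq promoter windows on GRCm38.p6, the assembly of mm10). It is written 5′ to 3′ with a match to TGACG in capitals. This pentamer is the core of the cAMP response element TGACGTCA that CREB binds. The final bases shown, the last letter of the match included, lie inside a longer RefSeq model of the gene.
Lama5: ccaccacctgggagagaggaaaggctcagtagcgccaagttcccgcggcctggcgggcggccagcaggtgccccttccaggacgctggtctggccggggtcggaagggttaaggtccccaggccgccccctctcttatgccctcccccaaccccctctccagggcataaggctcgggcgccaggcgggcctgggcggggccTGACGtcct
TGACG and TGACGTCA were searched on both strands in windows of 300 bases around annotated starts, and every full element also holds the pentamer. In Lama5 the pentamer begins at position −49 from the start. Windows were found for 7 members. The pentamer was in 2 of them, Lama5 and Lamb2, and in 20.8% of all 32851 windows; the full element was in 0 of the 7 and in 1.79% of all windows. A match describes the letters only and shows no binding.

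Lama4, an alpha chain of vessels and mesenchyme (chr10:38965515-39110188, plus strand), was close to undetected. It had 0, 1.5 and 9 counts in DMSO A, B and C and 6, 6 and 0 counts in forskolin A, B and C, 22.5 counts in all. The value of 9 counts in DMSO C, a shallow library, equals 3.05 CPM, and the floor of 3 counts is 0.279 to 1.17 CPM across libraries. No fold was formed, and no ratio to Lama5 across groups, since 2 libraries were at 0.

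Alpha chain transcripts were scarce beside those of Lamc1. The 5 laminin alpha genes summed to 4.03, 3.49 and 3.43 RPKM in DMSO and 6.08, 6.52 and 3.59 RPKM with forskolin, whereas Lamc1 alone was at 79.7, 77.4 and 84.1 RPKM and at 81.7, 85.5 and 74.2 RPKM. The alpha sums overlapped nowhere with Lamc1. Between the groups the alpha sums overlapped, since forskolin C lay inside the DMSO range. Per length, Lama5 was at 2.48%, 1.82% and 0.659% of Lamc1 in DMSO A, B and C and at 4.73%, 4.42% and 3.57% in forskolin A, B and C, groups that did not overlap. Lama1, an alpha chain best known from the embryo, was at 16.0, 17.4 and 17.6 CPM in DMSO and at 18.2, 22.5 and 7.77 CPM with forskolin (log2 fold change −0.02 ± 0.34), with forskolin C the lowest. Lama5 made up 48.9%, 40.3% and 15.7% of the alpha sum in DMSO and 63.5%, 58.0% and 73.7% with forskolin, groups that did not overlap. The percentages of Lamc1 and of the alpha sum are per length and are given as a description. Both rest on the Lama5 counts given above, so their separation adds no further evidence.

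Hspg2 encodes perlecan, a large proteoglycan that binds growth factors through its heparan sulfate chains (chr4:137468803-137570630, plus strand). With 14078 bases its transcript is the longest of the members. It was at 103, 115 and 50.2 CPM in DMSO and at 124, 139 and 52.1 CPM with forskolin. The A and B libraries were higher with forskolin than with DMSO and both C libraries were low, so the groups overlapped. The log2 fold change was 0.24 ± 0.35 (adjusted p = 0.887, 95% interval −0.53 to 1.01). Without both C libraries it was 0.27 with an adjusted p = 0.104.

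Replicate C stood apart for several members in both groups. Relative to the mean of A and B of the same group, on a log2 CPM scale, Hspg2 was at −1.11 in DMSO C and −1.33 in forskolin C, Col4a2 at −0.44 and −0.37, and Nid2 at −0.40 and −0.54. Nid1 went the other way, at 0.40 and 0.39. Lama5 was at −1.58 and −0.53, and Lamb2 differed in sign, at 0.22 and −1.03. The most abundant members were densely covered, at 2.27 reads per base for Nid1, 1.92 for Col4a1 and 1.19 for Col4a2 on average. Among the 438 genes above 1 read per base, counts grew less than depth from replicate A to B, by a median of −0.14 on the log2 scale in DMSO and −0.06 in forskolin. The part of coverage and depth in the members' values was not tested; with offsets that follow abundance 0 members were called and Lama5 had an adjusted p = 0.0559.

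Other basement membrane components were read from a list of 30 genes, of which 17 were tested. Of these, 1 rose, 0 fell and 16 did not pass in edgeR, beside 2.22% of all tested genes called higher. The median log2 fold change was 0.07, and 3 of 17 had an unadjusted p under 0.05, beside 12.1% of all tested genes. Values did not overlap between the groups for 5 of 17, beside 20.2%. The likelihood ratio test, DESeq2 and limma-voom called 2 each, adding Smoc2, where they called 5.31%, 4.52% and 3.94% of all tested genes. The riser was Agrn, agrin, a heparan sulfate proteoglycan that binds laminin and dystroglycan. It was at 25.1, 33.2 and 14.9 CPM in DMSO and at 102, 138 and 110 CPM with forskolin, groups far apart. It rose by 2.21 ± 0.24 on the log2 scale (adjusted p = 5.9e-04) and was called under all 18 alternatives, with adjusted p at most 0.00772. Agrn (chr4:156165290-156197488, minus strand) has Isg15 and the noncoding gene AW011738 as its upstream neighbours, named after their values were seen, and both rose. Isg15 was at 10.2 to 12.4 CPM in DMSO and 48.3 to 55.6 CPM with forskolin, and AW011738 at 2.03 to 6.68 CPM and 108 to 149 CPM. The most abundant components were Sparc, a collagen-binding matricellular protein (548 ± 83.0 CPM in DMSO and 604 ± 32.3 CPM with forskolin, SD, n = 3 per group), and Tinagl1, a tubulointerstitial nephritis antigen-like matrix protein (499 ± 57.0 and 484 ± 45.6 CPM). Their log2 fold changes were 0.14 ± 0.14 and −0.04 ± 0.13.

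All 17 listed receptors for laminin and collagen IV were tested, and 0 passed in either direction in edgeR, with 3 of 17 at an unadjusted p under 0.05, beside the 12.1% of all tested genes given above, and a median of 0.08. DESeq2 and the likelihood ratio test called 1, Mcam, where they called 4.52% and 5.31% of all tested genes. With limma-voom 0 were called. Without both C libraries 4 were called higher, in a fit that called 5.86% of all genes higher. Itgb1, the beta subunit shared by the laminin- and collagen-binding integrins, averaged 1210 ± 232 CPM under DMSO and 1181 ± 317 CPM under forskolin. Sdc3, a syndecan, was at 215 ± 48.2 and 269 ± 63.4 CPM (log2 fold change 0.32 ± 0.20, adjusted p = 0.622), and had an adjusted p = 0.0111 without both C libraries. Of 25 genes for folding, modification, export and crosslinking of these proteins, 24 were tested and 0 passed, with 1 at an unadjusted p under 0.05 and a median of 0.02; the likelihood ratio test, DESeq2 and limma-voom called 0 as well, and 2 were called higher without both C libraries. P4hb, the beta subunit of prolyl 4-hydroxylase, was at 654 ± 70.0 and 733 ± 150 CPM, and Serpinh1, the collagen chaperone HSP47, at 645 ± 52.3 and 626 ± 21.4 CPM.

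Turnover genes code for proteases that cut basement membrane proteins, for their inhibitors, and for enzymes that act on heparan sulfate chains. The list was drawn up, like the others, with earlier results of these data known. Of 26 listed, 24 were tested, 4 rose, 0 fell and 20 did not pass in edgeR, beside 2.22% of all tested genes called higher. The median log2 fold change was 0.40. An unadjusted p under 0.05 was reached by 8 of 24, beside 12.1% of all tested genes. Values did not overlap between the groups for 7 of 24, beside 20.2%. Without both C libraries 8 were called higher, where 5.86% of all genes were. Adamts1, a metalloprotease that cuts nidogens and proteoglycans, was at 436, 403 and 440 CPM in DMSO and at 1786, 1733 and 2516 CPM with forskolin. Its rise of 2.24 ± 0.19 on the log2 scale (adjusted p = 8.9e-05) left the groups far apart. Adamts9, a related secreted protease, rose by 2.28 ± 0.26 on the log2 scale, from 36.6 ± 15.4 to 183 ± 28.2 CPM. Plau and Plat encode plasminogen activators, and the plasmin they release degrades laminin. Plau rose by 1.28 ± 0.15, from 53.8 ± 9.22 to 131 ± 8.81 CPM, and Plat by 1.97 ± 0.27, from 9.58 ± 2.19 to 37.4 ± 8.99 CPM. All 4 calls held under each of the 18 alternatives, with adjusted p at most 0.0276.

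**Figure D4:**
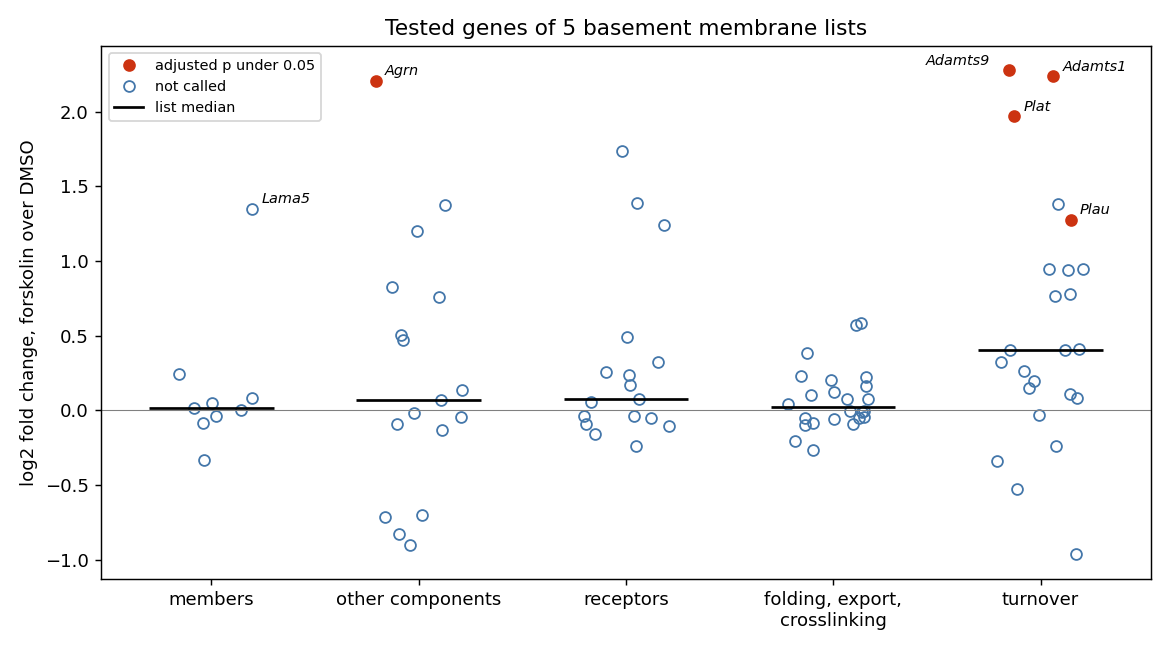
Log2 fold change of forskolin over DMSO for the tested genes of 5 lists: the members (9), other basement membrane components (17), receptors (17), folding, export and crosslinking genes (24) and turnover genes (24). Filled red points passed an adjusted p under 0.05, horizontal bars are list medians; the 5 filled points are Agrn, Adamts1, Adamts9, Plau and Plat, and Lama5 is labelled though not called.

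Among 7540 tested genes with at least 20 CPM outside the set, those whose log2 CPM over the 6 libraries correlated best with the mean profile of the 9 tested members were Angptl4 (r = 0.998), Calm3 (0.995), Tln2 (0.995), Uaca (0.994) and Dph6 (0.994). The mean profile was lowest in the C libraries, at −0.32 in DMSO C and −0.20 in forskolin C on a centred log2 scale. In DMSO C, Lama5 at −1.82 and Hspg2 at −0.84 carried most of that mean, while Nid1 at 0.31, Lamb2 at 0.37 and Lamc1 at 0.07 were above 0. The mean profile was highest in forskolin A and B, at 0.19 and 0.23. The points share libraries of unequal depth, the part of depth was not tested, and the values are a description with no test.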

How the data were processed

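Bulk RNA-seq of 6 libraries was analysed. The authors deposited 1 table of expected counts over exons per gene, in steps of 0.5 and unadjusted per the table's name; each row carries a RefSeq transcript, its length and its mm10 position. STAR and HOMER are named in the submitters' processing notes; their versions and settings, the counting rule and the treatment of duplicates were not given in the sources used here.

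Counts were rounded to whole numbers, filtered by filterByExpr, scaled by TMM and tested in edgeR 4.0.16 (R 4.3.3) by the robust quasi-likelihood F test, with Benjamini-Hochberg adjustment over all 12233 tested genes and calls at 0.05. CPM and RPKM use TMM-scaled library sizes of the tested genes and, for RPKM, the deposited length. Summed markers and shares use column totals. SEs come from the log2 fold change and its F, and 95% intervals from the SE and the test's degrees of freedom; both are approximate. The floor of 3 counts covers counting error only. The members and lists were chosen with earlier results of these data known. Named were all members, up to 4 called genes of each other list by p, a list's 2 most abundant genes where fewer than 2 passed, the 4 response genes, overlapping neighbours and the 5 genes of most similar pattern. Alternatives used limma 3.58.1 and DESeq2 1.42.0.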

Additional observations from a re-analysis of the deposited data

How the results depend on the processing

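Over 18 alternatives, 24 named genes gave 432 values, of which 394 kept direction and side of the threshold, 29 turned sign near 0, 9 newly passed (7 of Lama5, 2 of Sdc3) and 0 were lost. Against 272 genes called higher, 70 lower and 0 members, the counts were 463, 157 and 1 with no filter, 409, 144 and 1 with DESeq2, 459, 190 and 1 with the likelihood ratio test, 738, 491 and 1 without both C libraries, and 595, 389 and 1 with sample quality weights; limma-voom called 125 lower and 1 member. Leaving out 1 library gave 162 to 372 higher and 21 to 113 lower, the fewest without forskolin A and DMSO B and the most without forskolin C; 0 members were called. The cause was not tested, beside fewer samples or more genes tested. With the replicate letter as a block the counts were 455, 194 and 1, Lama5 had an adjusted p = 0.00910 and Sdc3 0.0267. Deviations of same-lettered libraries correlated at 0.0476 for A, 0.133 for B and 0.150 for C. DMSO B and DMSO C correlated best with the forskolin library of the same letter, and DMSO A with forskolin B, at 0.0844. The labels do not name pairs, and the main fit did not use the letters. Whether the letters stand for pairs cannot be told from these values.

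Log2 fold changes that turned sign were −0.0127 for Lamb1 and −0.0286 for Lamc1 with upper quartile factors, −0.0236 and −0.0313 with library sizes alone, −0.0116 and −0.0110 with offsets that follow abundance, −0.0095 for Lamc1 with limma-voom, −0.0064 for Lamb1 and 0.0033 for Nid2 with quality weights, and −0.0189 for Col4a1 and −0.0519 for Lamb1 without both C libraries, where Lamb2 over Lamb1 was at 0.0220. With 1 library left out, values ran from −0.0087 to 0.15 for Col4a1, −0.0526 to 0.20 for Col4a2, −0.0933 to 0.11 for Lamb1, −0.0432 to 0.0605 for Lamc1, −0.22 to 0.0548 for Nid1, −0.15 to 0.10 for Nid2, −0.0146 to 0.53 for Hspg2, −0.12 to 0.0398 for Tinagl1, −0.27 to 0.12 for Itgb1, −0.0106 to 0.25 for P4hb, −0.0622 to 0.17 for Col4a2 over Col4a1 and −0.24 to 0.34 for Nid2 over Nid1. Depth limits Lama4, with 22.5 counts in all, and Lama5 in DMSO C, with 18.5 counts.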

Other observations

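Some genes of the lists lay near the threshold and are named after their values were seen. In edgeR's quasi-likelihood test none of Smoc2, Mcam and Hpse was called. Its likelihood ratio test called all 3, where it called 5.31% of all tested genes. For each of the 3 the groups did not overlap, as for 20.2% of all tested genes. The likelihood ratio test also called Mmp2, whose groups overlapped (log2 fold change 0.77 ± 0.24, adjusted p = 0.176 in the quasi-likelihood test). Smoc2, a secreted calcium-binding basement membrane protein, averaged 9.95 ± 1.22 CPM under DMSO and 22.4 ± 6.84 CPM under forskolin (SD, n = 3 per group), an adjusted p = 0.0683. Mcam, a cell surface molecule reported to bind laminins with the Lama4 chain, averaged 4.06 ± 1.80 and 13.9 ± 6.00 CPM (log2 fold change 1.74 ± 0.46, adjusted p = 0.0979 in edgeR). Hpse, heparanase, which cuts heparan sulfate chains such as those of perlecan and agrin, averaged 7.42 ± 0.291 and 14.5 ± 1.73 CPM (0.95 ± 0.30, adjusted p = 0.183).

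In GENCODE M21, antisense genes overlap Col4a1 (Gm15418), Col4a2 (Gm15419) and Nid1 (Gm48682), and the microRNA genes Mir7005 and Mir7018 lie inside Lama5 and Hspg2 on the same strand. These overlaps are between whole gene spans, and overlap of exons was not checked. Where exons do overlap, reads of an antisense gene cannot be told apart from those of its partner with this kit.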
